A study of Mus musculus with 5 samples.

Results

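Genes of the Wnt pathway were followed in polyadenylated RNA of mouse embryonic stem cells, a cultured cell type derived from the early embryo that can form any tissue of the body. The genes were taken by name: Wnt ligands, Frizzled (Fzd) receptors, Dkk and Sfrp antagonists, R-spondins (Rspo), Lgr receptors, the antagonist Wif1, and the transcription factors Lef1 and Sp5. Of 24538 genes in the table, 31 met this rule. The samples were 3 libraries of wildtype cells (wildtype 1 to 3) and 2 libraries of cells whose −45 super-enhancer, a dense enhancer cluster regulating Nanog per the series title, was deleted (deleted 1 and 2). The labels name the −45 enhancer for all 5 libraries, the wildtype ones included. Per the labels' protocols, cultures were kept for 6 days with ethanol vehicle or 4-hydroxytamoxifen. The labels give no strain, do not say which library received which agent, and do not say whether libraries of a group came from separate cultures or clones. The spread behind each p-value is therefore that among these 5 libraries, and it may be technical. If agent and group coincide, an effect of the agent cannot be told apart from one of the deletion. A library of mixed RNA also cannot tell fewer cells of a type from less RNA per cell.

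Wnt proteins are secreted, lipid-modified ligands that bind Frizzled receptors together with Lrp co-receptors. This stabilises β-catenin, which enters the nucleus and activates target genes with DNA-binding factors of the TCF/LEF family. R-spondins, bound by Lgr receptors, raise the response by keeping the ligases Znrf3 and Rnf43 from removing Frizzled, while Dkk, Sfrp and Wif1 proteins act outside the cell as antagonists. In embryonic stem cells the pathway is known for supporting self-renewal, and inhibitors of the β-catenin kinase Gsk3 are a usual part of their culture media.

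Counts per exon bin (an exon or a part of one) were summed per gene. Library totals ranged from 93574214 to 213042064 counts, and the 31 genes together held 1122 to 2962 counts per library. Levels are CPM, counts scaled to a common library size, and 3 counts, the limit that a count of 0 allows, are worth 0.0141 to 0.0321 CPM by library. These limits cover counting error only. Wildtype 3, the deepest library, differed more from wildtype 1 and 2 (3.69 and 3.86 by chi-square of symbol counts, per degree of freedom) than these did from each other (1.68). Most counts of the table stand under assembly IDs that it does not pair with symbols, and rows under symbols held 0.328% to 0.375% of each library's counts. None of 13 fixed stem cell markers had a row under its symbol, so the labelled cell type was not checked against them. Of the 49 GENCODE symbols that meet the rule, 31 had rows under their symbols. Fzd2 to Fzd7, Fzd9 and Fzd10, the Sfrp genes, Lgr4, Wnt2b, Wnt5b, Dkk3, Dkkl1 and Rspo4os are not analysed here.

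Wif1, Sp5, Lef1, Rspo1, Wnt5a and Wnt9a differed between deleted and wildtype cells, and the first of these moved most, by 3.70-fold. Of the 31 genes, 23 had enough counts for a test, 2 of these were higher in the deleted cells (Wif1 and Sp5), 4 were lower and 17 did not pass (edgeR's quasi-likelihood test, Benjamini-Hochberg adjusted p under 0.05 over 16259 genes). These 6 calls are 26.1% of the tested members, against 31.8% of all 3591 tested symbols (18.9% higher and 12.9% lower) and 39.5% of all tested genes. Among the 2973 tested symbols in the members' range of mean level the share was 29.9%, so the members lie near the background. The median log2 fold change, deleted minus wildtype here and below, was −0.08 over tested members and 0.07 over tested symbols. Over all genes 3242 were higher and 3179 lower, or 2412 and 4037 when the scaling was taken from symbol rows alone, and the 2 and 4 members were called either way. Some members passed the low-count filter only through 1 group (Wnt9a and Wnt4 through wildtype, Wnt8b through the deleted libraries), so the counts over tested members are partly set by the filter. Against a fold change of 1.5 rather than 1, Wif1 alone was called.

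**Figure D1:**
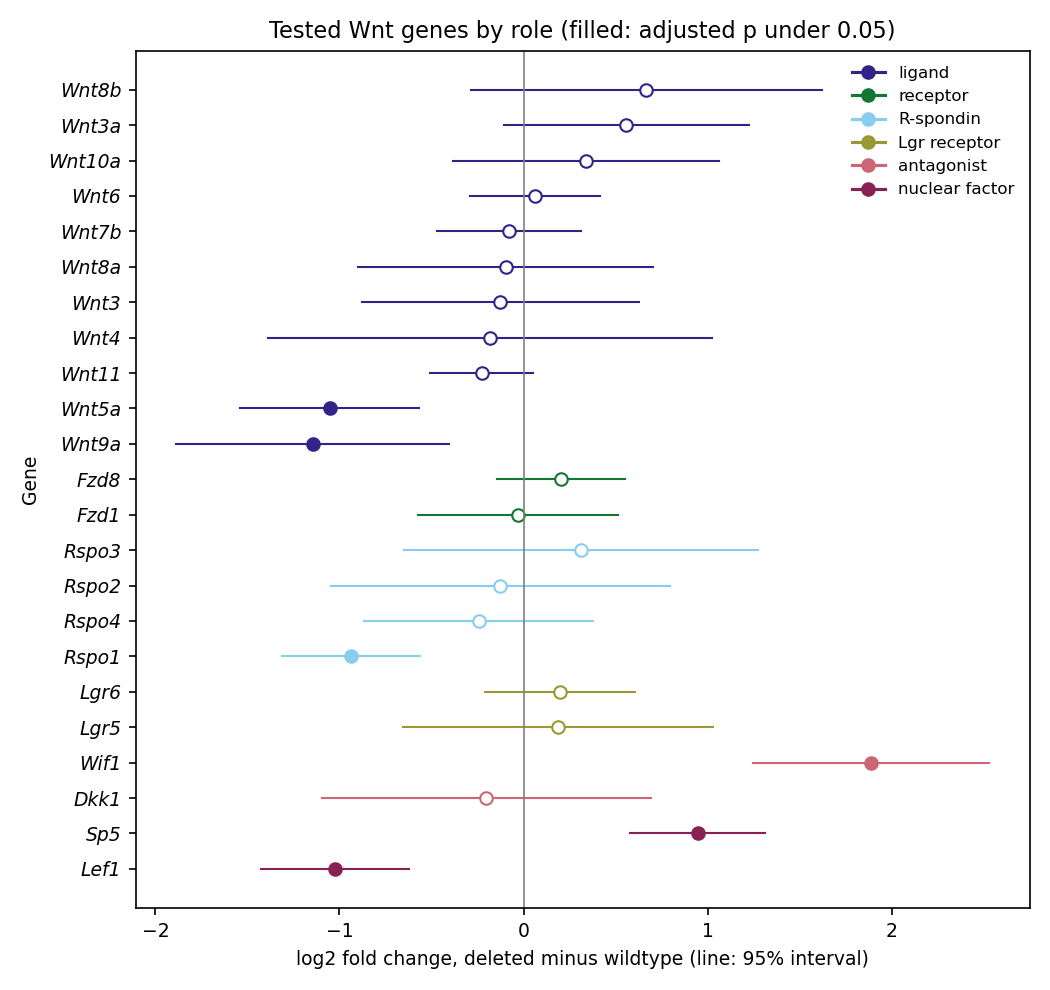
Log2 fold change (deleted minus wildtype, x axis) of the 23 tested genes, grouped by role, with lines for 95% intervals and filled points for adjusted p under 0.05. Wif1 at 1.89 and Sp5 at 0.95 lie to the right of 0, and Lef1, Rspo1, Wnt5a and Wnt9a between −1.14 and −0.94 lie to the left.

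The antagonist gene Wif1, whose secreted product binds Wnt ligands directly, rose. It stood at 0.217, 0.122 and 0.208 CPM in wildtype 1 to 3, and at 0.568 and 0.818 CPM in deleted 1 and 2. Both deleted libraries were above all 3 wildtype libraries, and the lowest wildtype value, in wildtype 2, rests on 14 counts. Means were 0.183 ± 0.0522 CPM (SD, n = 3) and 0.693 ± 0.177 CPM (SD, n = 2), which is 1.89 ± 0.28 (SE) as a log2 fold change (adjusted p = 0.00157 by edgeR). The call was kept in each of the 15 alternatives tried, with log2 fold changes of 1.58 to 2.12. Dkk1, an antagonist that blocks the Lrp co-receptors, overlapped between groups, with 0.0884, 0.131 and 0.148 CPM in wildtype and 0.129 and 0.0908 CPM in deleted cells. Its log2 fold change was −0.20, with a 95% interval of −1.10 to 0.69.

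Sp5, a zinc-finger factor gene and a known direct target of β-catenin signalling, rose as well. Its level was 0.418, 0.446 and 0.472 CPM in wildtype 1 to 3 and 0.900 and 0.828 CPM in deleted 1 and 2. The groups were well apart, with means of 0.445 ± 0.0270 CPM (SD, n = 3) and 0.864 ± 0.0512 CPM (SD, n = 2). The log2 fold change was 0.95 ± 0.16 (SE), with adjusted p = 0.00272 by edgeR.

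Lef1 encodes a DNA-binding partner of β-catenin, and unlike Sp5 it fell. Wildtype 1 to 3 had 2.55, 2.12 and 3.05 CPM, and deleted 1 and 2 had 1.21 and 1.33 CPM. The highest deleted value was below the lowest wildtype value, and wildtype 3 was the highest library. Means were 2.57 ± 0.466 CPM (SD, n = 3) and 1.27 ± 0.0859 CPM (SD, n = 2), which is −1.03 ± 0.17 (SE) as a log2 fold change (adjusted p = 0.00297 by edgeR). Without wildtype 3 the log2 fold change was −0.88, and the call was kept. The exons of Lef1, Wnt5a, Wnt11, Wnt7b and Rspo3 each overlap those of another gene on the opposite strand. Without a stated strand setting, reads of such pairs cannot be told apart.

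**Figure D2:**
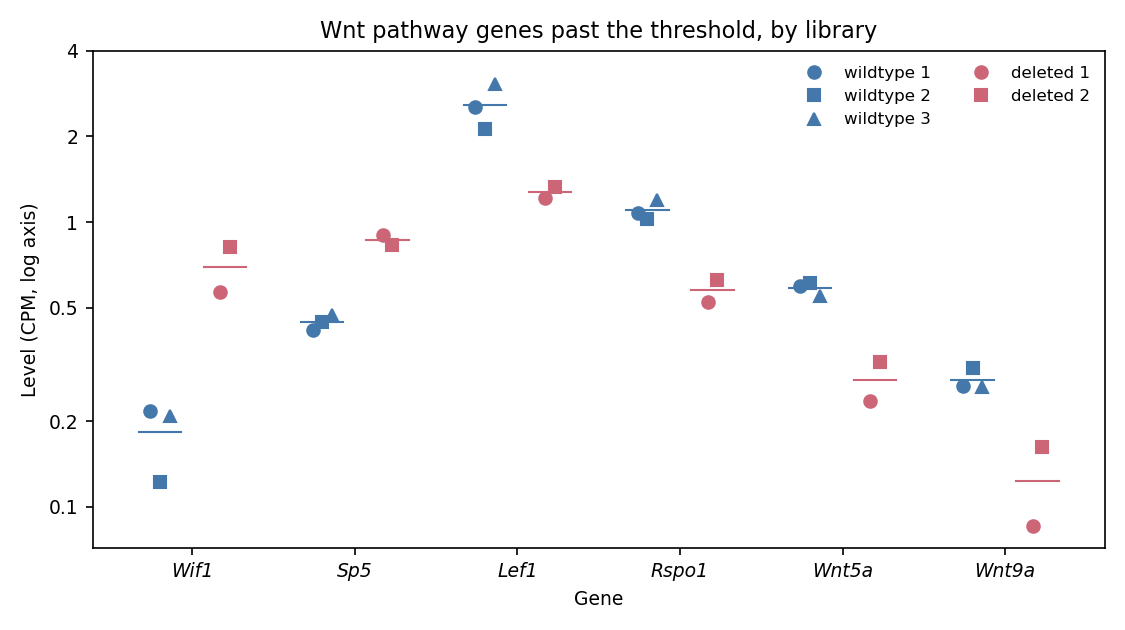
Level in CPM (log axis) of the 6 genes past the threshold in each library, with wildtype in blue, deleted in red and horizontal lines at group means. For each gene the deleted libraries lie outside the range of the wildtype libraries, for example 0.568 and 0.818 CPM against 0.122 to 0.217 CPM for Wif1.

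Promoter sequences are shown for these 3 genes, since Sp5 and Lef1 belong to the nuclear arm of the pathway and Wif1 changed most. They are the 250 bases before the RefSeq gene start (GRCm38.p6, plus strand), in lower case with TCF/LEF motif matches in capitals. The motif was searched on both strands as CTTTG followed by 2 bases that are each A or T. The windows are chr2:70474673-70474922 for Sp5, chr10:121033754-121034003 for Wif1 and chr3:131110047-131110296 for the first of 4 Lef1 entries.
Sp5: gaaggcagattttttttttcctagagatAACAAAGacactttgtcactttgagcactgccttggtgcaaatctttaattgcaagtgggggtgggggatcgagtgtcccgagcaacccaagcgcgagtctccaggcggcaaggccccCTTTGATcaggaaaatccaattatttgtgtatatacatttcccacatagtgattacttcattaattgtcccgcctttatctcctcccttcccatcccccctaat
Wif1: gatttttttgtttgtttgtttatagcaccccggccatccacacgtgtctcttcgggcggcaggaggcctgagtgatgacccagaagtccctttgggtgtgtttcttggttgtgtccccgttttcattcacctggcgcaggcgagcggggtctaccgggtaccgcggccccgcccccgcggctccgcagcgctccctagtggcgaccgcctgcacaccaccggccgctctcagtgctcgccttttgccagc
Lef1: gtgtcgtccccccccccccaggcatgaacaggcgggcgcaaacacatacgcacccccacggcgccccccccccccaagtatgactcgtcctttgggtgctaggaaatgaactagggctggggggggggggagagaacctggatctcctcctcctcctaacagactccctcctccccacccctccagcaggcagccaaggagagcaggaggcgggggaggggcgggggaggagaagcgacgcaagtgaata
The Sp5 window held 2 matches, CTTTGAT beginning 104 bases and, on the other strand, a match whose printed letters are AACAAAG, beginning 222 bases before the start. The printed windows of Wif1 and Lef1 held none, and 1 of the 4 Lef1 entries held 1 match. Of 32851 RefSeq promoter windows of this length, 14.8% held at least 1 match and 1.43% at least 2. Of the 31 genes, 22 had an entry, 26 windows in all, of which 4 held a match, and 2 of these held 2 (Sp5 and Dkk1, which was not called). A match is a string of letters and not a shown binding site, and the files measured RNA only.

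Rspo1, an R-spondin gene, fell. It stood at 1.08, 1.02 and 1.20 CPM in wildtype 1 to 3, and at 0.525 and 0.626 CPM in deleted 1 and 2. No deleted library reached the wildtype range. Means were 1.10 ± 0.0896 CPM (SD, n = 3) and 0.575 ± 0.0712 CPM (SD, n = 2), which is −0.94 ± 0.16 (SE) as a log2 fold change (adjusted p = 0.00314 by edgeR). Rspo2, Rspo3 and Rspo4 did not pass (adjusted p = 0.828, 0.586 and 0.537 by edgeR). Rspo4 was 0.184 to 0.185 CPM in the wildtype libraries and 0.151 to 0.161 CPM in the deleted ones. These groups did not overlap, and the log2 fold change of −0.24 had a 95% interval of −0.86 to 0.38, on 15 counts in each deleted library. The difference between Rspo1 and the other R-spondins was not tested. For Rspo2 and Rspo3, at 0.0707 to 0.150 CPM across libraries, the intervals of −1.05 to 0.80 and −0.65 to 1.27 each hold a 2-fold change.

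Of 11 tested ligand genes, Wnt5a and Wnt9a were lower and 9 did not pass. That is 18.2% called, against 31.8% of tested symbols called and 12.9% called lower. Wnt5a, a ligand best known for signalling without β-catenin, had 0.595, 0.613 and 0.551 CPM in wildtype 1 to 3 and 0.236 and 0.323 CPM in deleted 1 and 2. Every wildtype library lay above both deleted ones. The means of 0.586 ± 0.0318 CPM (SD, n = 3) and 0.279 ± 0.0617 CPM (SD, n = 2) gave a log2 fold change of −1.05 ± 0.21 (SE; adjusted p = 0.00591 by edgeR). Wnt9a, a ligand gene of the same family, had 0.265, 0.306 and 0.264 CPM in wildtype and 0.0857 and 0.161 CPM in deleted cells. The deleted values rest on 8 and 16 counts and again lie below all wildtype values. Its log2 fold change was −1.14 ± 0.32 (SE), with adjusted p = 0.0243 by edgeR. Both calls depended on single libraries. Without deleted 1, Wnt5a had −0.85 (adjusted p = 0.0589 by edgeR) and Wnt9a −0.77 (adjusted p = 0.169 by edgeR), and without wildtype 2 Wnt9a had −1.08 (adjusted p = 0.0562 by edgeR).

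Wnt6, Wnt11 and Wnt7b were the most abundant ligands among those with rows, and none of these passed the test. Wnt6 stood at 1.22, 1.40 and 1.07 CPM in wildtype and 1.30 and 1.25 CPM in deleted cells, so the groups overlapped. Its log2 fold change of 0.06 had a 95% interval of −0.29 to 0.41 and turned to −0.02 when scaling was taken from symbol rows. Wnt7b, at 1.43, 1.88 and 1.34 CPM against 1.45 and 1.46 CPM, overlapped too, with an interval of −0.47 to 0.31. Wnt11, a ligand of cell movement in the early embryo, had 1.43, 1.51 and 1.43 CPM in wildtype and 1.20 and 1.28 CPM in deleted cells. The Wnt11 groups did not overlap, but the difference of −0.23 ± 0.12 (log2, SE) missed the threshold (adjusted p = 0.168 by edgeR). For these 3 ligands the intervals lie within a 2-fold change in either direction.

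Wnt3a, the ligand most used to activate β-catenin signalling in culture, had 0.161, 0.149 and 0.139 CPM in wildtype and 0.257 and 0.182 CPM in deleted cells. These groups did not overlap either, and the difference of 0.56 ± 0.29 (log2, SE) missed it as well (adjusted p = 0.160 by edgeR). Groups failed to overlap in 11 of the 23 tested members, 5 higher and 6 lower in deleted cells, against 57% of tested symbols. Wnt8b had 0.67, with a 95% interval of −0.29 to 1.62, and Wnt10a 0.34, with an interval of −0.38 to 1.06. Wnt3, Wnt4 and Wnt8a had log2 fold changes of −0.13, −0.18 and −0.10, and their sign changed when 1 library was left out.

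The 4 tested receptor genes did not pass with edgeR, DESeq2 or limma-voom, and 0 of 4 had an unadjusted edgeR p under 0.05. Fzd8, a Frizzled receptor gene, stood at 1.04, 0.823 and 0.962 CPM in wildtype and 1.04 and 1.13 CPM in deleted cells, a log2 fold change of 0.20 with a 95% interval of −0.15 to 0.55. Fzd1 ranged from 0.303 to 0.471 CPM, with both extremes in the deleted libraries, and its interval was −0.57 to 0.51. Lgr6 and Lgr5 encode receptors for R-spondins, Lgr5 being the known stem cell marker of the gut. Lgr6 had 0.948, 0.840 and 1.16 CPM against 1.23 and 1.05 CPM (interval −0.21 to 0.60), and Lgr5 had 0.0908 to 0.150 CPM over all libraries (interval −0.66 to 1.03). Of the 17 tested members that did not pass, 8 had an interval that holds a 2-fold change, so a difference of that size is not excluded for them.

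The other 8 genes had too few counts for a test, 2 to 44 in all libraries together. Wnt7a, a ligand gene, had 10, 12 and 15 counts in wildtype 1 to 3 and 1 and 6 in deleted 1 and 2. Wnt16 had 7, 3 and 11 against 7 and 9 counts, and Wnt9b 3, 2 and 7 against 1 and 1. Dkk4, an antagonist gene, had 5, 1 and 6 counts in wildtype and 0 in both deleted libraries, which allows up to 0.0321 and 0.0303 CPM there. Wnt2, Wnt10b, Wnt1 and Dkk2 had at most 7 counts in any library. With no low-count filter these genes were tested as well, and adjusted edgeR p-values ran from 0.103 (Dkk4) to 0.956 (Wnt2).

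Levels were compared between genes per kb of exon (GENCODE vM21 exon lengths, which may differ from the authors' bins). Reads that span bins count in each, which can raise the level of genes with more bins (4 in Wnt6, 13 in Lef1). The order of genes carries this limit. In wildtype cells Rspo1 and Wnt6 were highest, at 0.567 ± 0.0462 and 0.561 ± 0.0756 CPM per kb (SD, n = 3), and did not differ beyond their spread. Wnt11 (0.352 ± 0.0120), Wnt7b (0.317 ± 0.0590) and Lef1 (0.293 ± 0.0531) followed with overlapping spreads, and then Sp5 at 0.212 ± 0.0129 CPM per kb. In the deleted cells Wnt6 came first at 0.581 ± 0.0145 CPM per kb (SD, n = 2), followed by Sp5 at 0.411 ± 0.0244. Wnt11, Wnt7b, Rspo1 and Wif1 then stood close together, at 0.300, 0.2971, 0.2969 and 0.285 CPM per kb, while Lef1 was at 0.145. Wif1 had been at 0.0752 ± 0.0215 CPM per kb in wildtype cells. The lowest levels per kb in wildtype cells were those of Wnt10b, Wnt1 and Dkk2, which rest on a few counts.

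**Figure D3:**
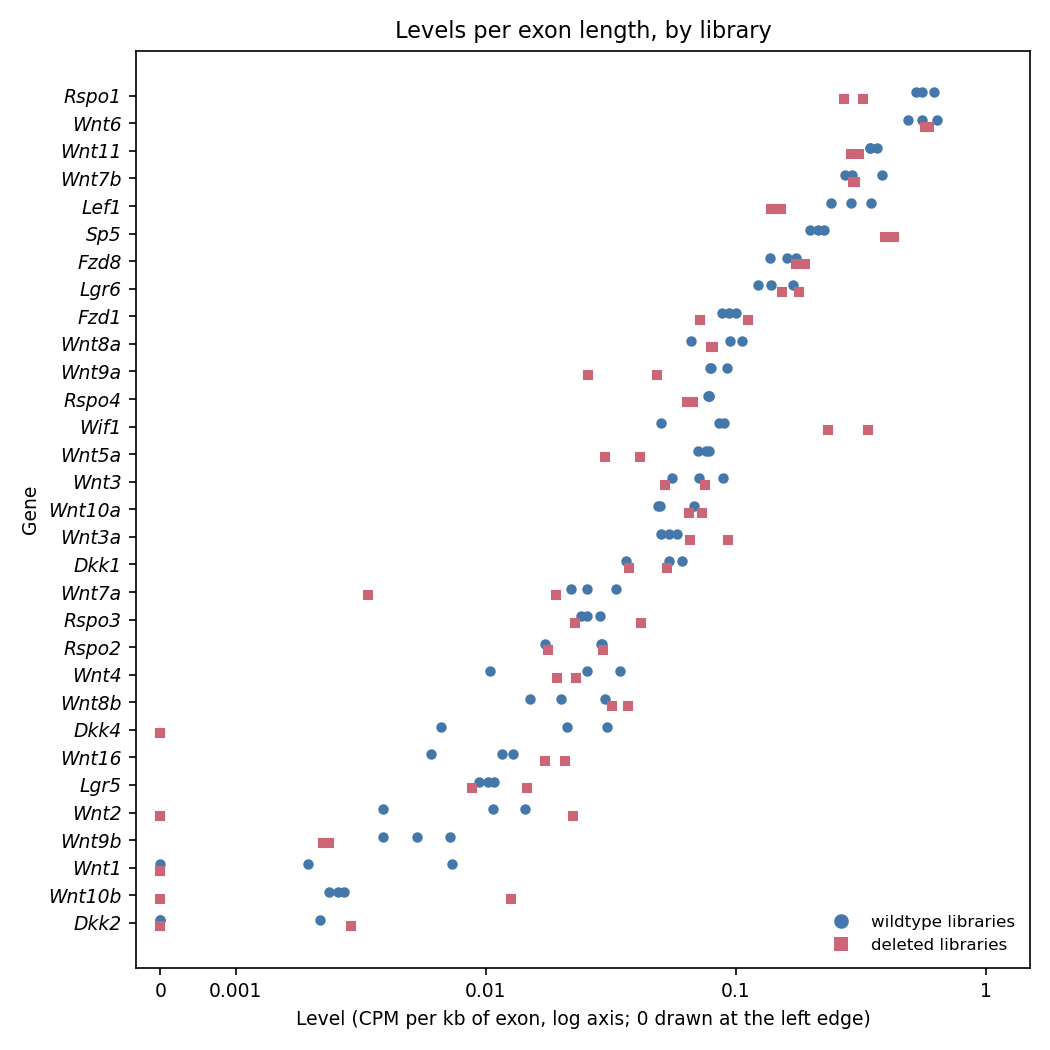
Level per kb of exon (CPM per kb, log axis) of the 31 genes in each library, wildtype as blue circles and deleted as red squares, ordered by the wildtype mean and with 0 drawn at the left edge. Rspo1 and Wnt6 lead in wildtype at 0.567 and 0.561 CPM per kb, and Wif1 and Sp5 have their red squares to the right of the blue circles.

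Bins of a gene share reads that span them, so they are a description and not repeated tests. Among bins with at least 10 counts in all, each of the 11 of Lef1, 6 of Rspo1, 5 of Wif1, 5 of Wnt5a, 2 of Sp5 and 2 of Wnt9a had the sign of its gene. Bin values ran from −1.95 to −0.39 in Lef1 and from 0.64 to 2.59 in Wif1 on the log2 scale. Bin 13 of Lef1 held 29.5% of its counts in wildtype and 36.3% in deleted cells, and bin 10 of Wif1 held 47.7% and 44.0%. In the smaller Sp5 bin the log2 fold change was 2.10, on 2 to 15 counts per library, and in the larger one, with 93.2% of the wildtype counts, 0.80. Lgr6, which did not pass as a gene, had bins from −1.66 to 2.29, 13 of 18 with the sign of the gene.

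**Figure D4:**
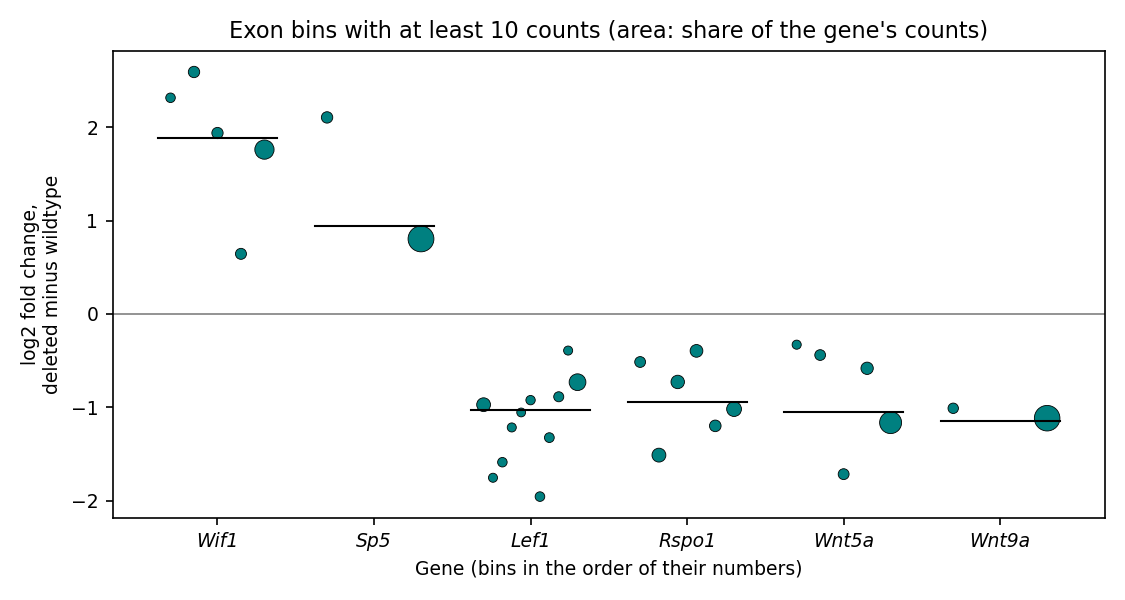
Log2 fold change (deleted minus wildtype) of each exon bin with at least 10 counts in all, for the 6 genes past the threshold, with point area for the bin's share of the gene's counts and a line for the value of the gene. The bins of Wif1 and Sp5 lie above 0, and those of Lef1 (−1.95 to −0.39), Rspo1, Wnt5a and Wnt9a below it.

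In the rest of the pathway, 155 other genes were listed by role, 53 had rows under their symbols and 41 were tested. Of these, 6 were higher, 9 were lower and 26 did not pass, or 36.6% called against 31.8% of tested symbols, with a median log2 fold change of 0.02. Without deleted 1 the count was 7, and without deleted 2 it was 8.

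Of 5 tested genes of cytoplasmic transduction, the relay from receptor to β-catenin, 2 were higher, 1 was lower, and Tnik and Daam2 did not pass. That is 60% called, against 31.8% of tested symbols, and it rests on 5 genes. Dact1, which encodes a protein that binds Dishevelled, the relay next to Frizzled, had 5.86, 5.73 and 5.75 CPM in wildtype and 2.57 and 2.94 CPM in deleted cells. The wildtype libraries were close together and well above both deleted libraries. Its log2 fold change of −1.07 ± 0.09 (SE; adjusted p = 0.000222 by edgeR) was called in every alternative tried. The feedback inhibitor genes Nkd1 and Nkd2 rose, from 0.643 ± 0.0113 to 1.18 ± 0.219 CPM and from 1.19 ± 0.0990 to 1.76 ± 0.0211 CPM (SD, n = 3 and n = 2). Log2 fold changes were 0.88 ± 0.16 for Nkd1 and 0.57 ± 0.12 for Nkd2 (SE; adjusted p = 0.00398 and 0.00901 by edgeR). The 160 tested symbols of chromosome 8, where Nkd1 lies, had a median of 0.52 (log2 fold change), and its bin with most counts, tested alone, missed the threshold (0.45; adjusted p = 0.218 by edgeR). Nkd2 did not pass without deleted 1 (adjusted p = 0.0562 by edgeR) or without deleted 2 (0.0632). Chromosomes of the 6 called members had medians between −0.09 and 0.09.

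Among receptors and extracellular inhibitors, Tspan12, a Frizzled co-receptor gene, rose from a mean of 0.825 ± 0.0420 CPM in wildtype (SD, n = 3) to one of 1.44 ± 0.0713 CPM (SD, n = 2), which is 0.80 ± 0.13 (SE) as a log2 fold change (adjusted p = 0.00227 by edgeR). Ror1, a receptor gene for Wnt5a, had −0.73 ± 0.20 (adjusted p = 0.0205 by edgeR). Draxin, a secreted Wnt antagonist and axon guidance gene, fell from 1.90 ± 0.158 to 0.973 ± 0.194 CPM (SD, n = 3 and n = 2), which is −0.97 ± 0.16 (SE) as a log2 fold change (adjusted p = 0.00252 by edgeR). Kremen2, which encodes a Dkk receptor, had −0.94 ± 0.31 (adjusted p = 0.0452 by edgeR). Calls for Tspan12 and Draxin held without any single library. Ror1 was no longer called when wildtype 2, deleted 1 or deleted 2 was left out (adjusted p = 0.0512, 0.109 and 0.0895 by edgeR), nor by DESeq2 (adjusted p = 0.0531). Kremen2 was not called when wildtype 1, wildtype 2, deleted 1 or deleted 2 was left out (adjusted p = 0.0578 to 0.267 by edgeR), by limma-voom (adjusted p = 0.0604), or from its bin with most counts (adjusted p = 0.0755 by edgeR).

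Of 13 tested targets, 2 were higher, 2 lower and 9 did not pass, or 30.8% called, near the 31.8% of all tested symbols. The T-box gene Tbx6 had 1.87 ± 0.33 (adjusted p = 0.00346 by edgeR), and its counts were high enough for the filter in the deleted libraries alone. Msx2 fell by 0.76 ± 0.20 on the log2 scale (adjusted p = 0.0200 by edgeR, with 0.0968 and 0.0975 without deleted 1 or 2). Cdx2 had −1.32 ± 0.43 (adjusted p = 0.0436 by edgeR), with −0.75 and 0.254 without deleted 1, −2.36 and 0.0305 without deleted 2, and 0.0819 and 0.0569 without wildtype 1 or 3. It did not pass with DESeq2 (adjusted p = 0.0534) or in its most counted bin (adjusted p = 0.0603 by edgeR), and it met the low-count filter through wildtype alone. Of 9 tested genes of the polarity and calcium branch, 1 was higher, 3 were lower and 5 did not pass. That is 44.4% called, against 31.8% of tested symbols. Prickle1 had 0.48 ± 0.10, Celsr2 −0.61 ± 0.17, Nfatc2 −0.68 ± 0.16 and Prkca −0.43 ± 0.11 (adjusted p = 0.00892, 0.0238, 0.0140 and 0.0152 by edgeR). Each of these 4 calls ended without deleted 1 or without deleted 2, and that of Celsr2 also in the most counted bin (adjusted p = 0.0736 to 0.244 by edgeR over these). None of 5 tested nuclear factors or 3 receptor turnover genes passed with edgeR, DESeq2 or limma-voom, and 0 of them had an unadjusted edgeR p under 0.05. The most abundant genes that did not pass were Celsr1, Mitf, Tnik, Reck and Bcl9l, with log2 fold changes between −0.01 and 0.06.

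**Figure D5:**
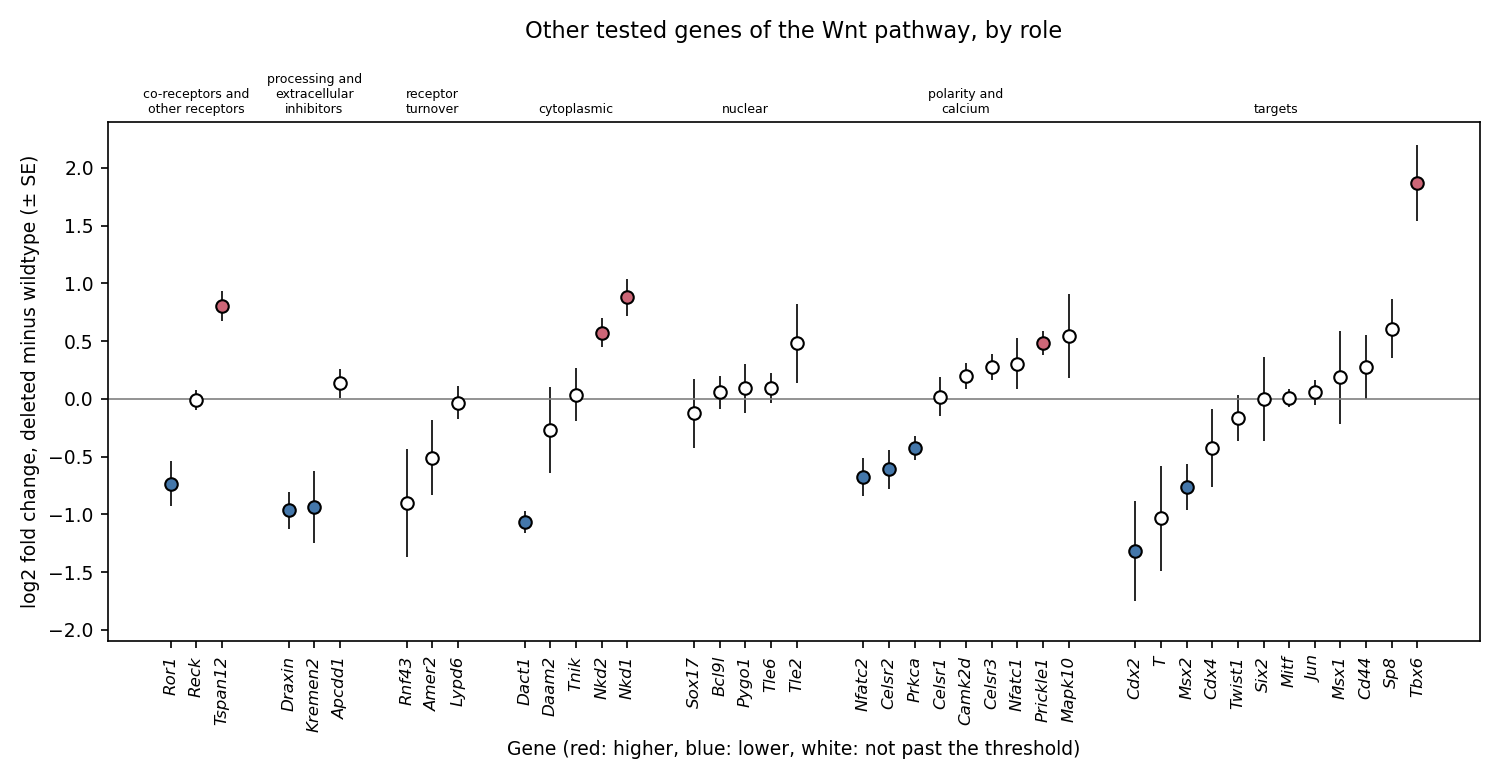
Log2 fold change (deleted minus wildtype) ± SE of 40 of the 41 other tested genes of the pathway, by role, with red for higher, blue for lower and white for not past the threshold. Dact1 at −1.07 has the narrowest error among the lowered genes, and Tbx6 among the targets stands at 1.87.

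Markers of other cell states were counted between the same groups, to be read against 31.8% of tested symbols called (18.9% higher and 12.9% lower), and their part in the Wnt results was not tested. All 8 tested two-cell-like markers were higher, with a summed level of 2.67 to 3.03 CPM in wildtype and 15.6 to 15.9 CPM in deleted libraries. They include members of the same families (Zscan4a, Zscan4b and Zscan4c, and Usp17la and Usp17le), so they are not separate lines of evidence. Zscan4c alone held most of the sum, with means of 1.62 CPM in wildtype and 9.37 CPM in deleted cells. Of 9 primitive endoderm markers 3 were lower and 0 higher (8.45 to 9.49 against 5.63 to 6.92 CPM summed). That is 33.3%, against 31.8% of tested symbols called either way and 12.9% called lower. Mean CPM went from 2.32 to 1.25 for Sox7, 1.87 to 0.442 for Cubn and 0.676 to 0.330 for Pdgfra, wildtype to deleted. Gata4, Gata6, Sox17, Dab2, Foxa2 and Hnf4a did not pass, with log2 fold changes of −0.24 to 0.26. Of 7 streak and mesoderm markers 2 were higher and 2 lower (6.50 to 6.70 against 5.46 to 5.83 CPM). Tbx6 and Gsc were higher, Fst and Nkx1-2 lower, and T, Mixl1 and Mesp1 did not pass. Fst, the most abundant of the 7, had means of 4.23 CPM in wildtype and 2.95 CPM in deleted cells. Of 4 neuroectoderm markers 1 was higher and 1 lower (4.68 to 6.94 against 4.98 to 5.80 CPM). Of 6 tested fibroblast markers, the usual feeder cells of such cultures, 4 were higher (Col1a2, Col5a2, Col6a1 and Col6a2), and the list's sum was 6.77 to 9.51 against 9.72 to 9.93 CPM. Col1a1 and Fbn1 did not pass, with log2 fold changes of 0.18 and 0.15. Fbn1 held most of that sum, with means of 5.53 CPM in wildtype and 6.17 CPM in deleted cells. The 5 untested fibroblast markers with rows, Col3a1, Postn, Lum, Dcn and S100a4, had 12, 1, 1, 3 and 13 counts in all libraries together. Dux, Tdpoz3, Tmem92, Tbx6 and Col6a1 met the low-count filter through the deleted libraries alone, and Otx1 and Foxa2 through wildtype alone. The counts of called markers, those of the two-cell-like and fibroblast lists included, are therefore partly set by the filter.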

How the data were processed

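Polyadenylated RNA of mouse embryonic stem cells was sequenced in 3 wildtype and 2 deleted libraries. The authors deposited raw read counts per exon bin, 243715 bins after 56 spike-in names were left out. The submitters' processing notes name STAR and the build mm9. Which annotation and strand setting were used is not stated. Groups come from the sample titles.

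Bin counts were summed per gene. Genes with at least 10 counts, scaled to the median library, in 2 libraries (edgeR's filterByExpr) had TMM scaling and entered edgeR's quasi-likelihood F test over all 5 libraries, with Benjamini-Hochberg adjustment over all tested genes (R 4.3.3, edgeR 4.0.16, limma 3.58.1). The SE is the log2 fold change divided by the square root of F. The script was tested on simulated data. Alternatives were other scalings and filters, limma-voom, DESeq2 1.42.0, each gene's bin with most counts, the replicate block, a 1.5-fold threshold and each library left out, plus a robust prior chosen after seeing the data. Named genes were every tested member, per-library values for called or abundant ones, and the called and 5 most abundant uncalled genes of the pathway list. The values of 1 of the 2 raised targets are not reported here. The members and lists were chosen with earlier results of these data known. Promoters are RefSeq's (GRCm38.p6), and exon lengths and overlaps GENCODE vM21's.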

Additional observations from a re-analysis of the deposited data

How the results depend on the processing

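The 6 called members kept their direction in all 90 values from alternatives, and 82 of these stayed past the threshold. Of 240 values for uncalled members 222 kept their sign and none passed the threshold, and of 224 for called pathway genes 183 stayed past it and none changed sign. The number of called members was 6 in every alternative other than the 1.5-fold threshold and leaving out wildtype 2 or deleted 1, and ranged from 4 to 6 with 1 library left out. Over all genes the count ranged from 3206 to 8282 with 1 library left out (3206 without deleted 1, 3864 without deleted 2), where a lone deleted library is assumed to vary like the wildtype ones, and for the other pathway genes from 7 to 18 (7 and 8 without deleted 1 and 2). Against a 1.5-fold change the counts were 814, 1 member and 2 pathway genes, a stricter question by construction.

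Signs changed in some uncalled members, with log2 fold changes between −0.20 (Dkk1) and 0.31 (Rspo3) in the main fit, and the cause was not tested. With 1 library left out, log2 fold changes ranged from −0.47 to 0.012 for Dkk1, −0.38 to 0.24 for Fzd1, −0.21 to 0.49 for Lgr5, −0.52 to 0.18 for Rspo2, −0.17 to 0.67 for Rspo3, −0.44 to 0.10 for Wnt3, −0.46 to 0.075 for Wnt4, −0.048 to 0.16 for Wnt6, −0.19 to 0.072 for Wnt7b and −0.33 to 0.034 for Wnt8a. Wnt6 was −0.018 with scaling from symbol rows, and Wnt7b 0.030 in the most counted bin.

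The labels do not say whether replicate numbers pair the libraries. Deviations from the group means correlated at 0.13 for number 1 and −0.15 for number 2. With 2 deleted libraries their deviations mirror each other, so these values cannot decide whether the numbers pair libraries. With the replicate block 8250 genes, 6 members and 18 pathway genes were called, and Dkk1, Rspo2 and Wnt6 were 0.0021, 0.027 and −0.039. Members with under 50 counts in all could not be tested at this depth under the main filter.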

Other observations

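Several members are neighbours on a chromosome, with no protein-coding gene between them in the RefSeq table (GRCm38.p6). Wnt3a and Wnt9a, a pair on chromosome 11, had log2 fold changes of 0.56, which did not pass, and −1.14, which did. The difference between the pair was not tested. Wnt6 and Wnt10a, neighbours on chromosome 1, had 0.06 and 0.34, and neither passed. Of the pair of Wnt3 and Wnt9b on chromosome 11 only Wnt3 was tested (−0.13), and Wnt1 and Wnt10b on chromosome 15 were both too low for a test.

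Within the ligands that had rows, the order of abundance per exon length changed little at the top. Of the summed CPM per kb of the 17 ligand genes, Wnt6 held 31.8% ± 1.43 in wildtype (SD, n = 3) and 35.3% ± 1.82 in deleted cells (SD, n = 2). Wnt11 held 20.1% ± 1.48 and 18.2% ± 0.361, and Wnt7b 17.9% ± 1.97 and 18.0% ± 0.333. Lower down, Wnt9a went from 4.75% ± 0.288 to 2.24% ± 0.916 and Wnt5a from 4.26% ± 0.178 to 2.16% ± 0.420, while Wnt3a stood at 3.08% ± 0.230 and 4.83% ± 1.30. These shares leave out Wnt2b and Wnt5b, which had no row under their symbols, and they were not tested. Reads spanning bins count in each bin here too, which can raise the shares of ligands with more bins.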
